A study of Mus musculus with 26 samples.

Results

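The aryl hydrocarbon receptor (AhR) and 6 genes tied to it were followed across brown preadipocytes that differ in the insulin receptor (IR) they carry. The 7 genes were *Ahr*, its partner *Arnt*, its repressor *Ahrr*, and the targets *Cyp1a1*, *Cyp1b1*, *Tiparp*, and *Nqo1*, out of 52962 genes in the count table. They were chosen by name, and *Cyp1a1* was the starting point because its level was known to be highest with the JMO receptor. Its differences between lines are therefore given as a description with no test, and the tests between lines concern the other 6. All 7 were among the 15402 genes tested.

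All cells came from newborn mouse brown fat preadipocytes immortalized with SV40 T antigen, and all had lost IR and the IGF1 receptor (IGF1R) through Cre recombination. DKO cells then received the empty pBabe-hygro retroviral vector. The other lines received the same vector with FLAG-tagged human IR (B isoform), intact (IR), without kinase activity (K1030R), without the last 79 amino acids (∆CT), or with only 36 juxtamembrane amino acids of the intracellular domain left (JMO). Confluent cells were kept without serum for 6 h, then left basal or given 100 nM insulin for 15 min. DKO cells were measured in the basal state only. Each of the 9 groups had 3 libraries, except ∆CT with insulin, which had 2. Each receptor was carried by a single transduced line, so p-values here measure the spread between libraries of that line and not between independently made lines.

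AhR is a ligand-activated transcription factor of the bHLH-PAS family. Without ligand it is held in the cytosol by HSP90 and co-chaperones such as p23, and with ligand it enters the nucleus, pairs with ARNT, and binds dioxin response elements, whose core is GCGTG. CYP1A1 and CYP1B1, which oxidize planar aromatic compounds and some endogenous lipids and hormones, are its classical targets. TIPARP and AHRR are targets that restrain the receptor in turn, and NQO1, a quinone reductase, is shared with the stress factor NRF2.

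The stretch of 250 bases before the RefSeq start site was available for 6 of the 7 genes, all but *Ahr*. The core GCGTG, searched on both strands, was present in these stretches for *Cyp1a1*, *Cyp1b1*, *Tiparp*, *Ahrr*, and *Arnt*, and was not found for *Nqo1*. Of 32851 promoters of the same length, 28.2% held at least 1 core, so a single match is common. The 7-letter form TNGCGTG, held by 4.1% of promoters, was found only for *Ahrr* among the 6. The sequences of *Cyp1a1*, *Cyp1b1*, *Ahrr*, and *Nqo1* are shown, read 5′ to 3′ on the strand of the gene and taken from RefSeq on GRCm38.p6, because they set the 2 P450 targets beside the repressor with most cores and the target with none. Capitals mark the core, written GCGTG on the strand of the gene or CACGC where it lies on the other strand.
Cyp1a1, chr9:57697363-57697612, plus strand: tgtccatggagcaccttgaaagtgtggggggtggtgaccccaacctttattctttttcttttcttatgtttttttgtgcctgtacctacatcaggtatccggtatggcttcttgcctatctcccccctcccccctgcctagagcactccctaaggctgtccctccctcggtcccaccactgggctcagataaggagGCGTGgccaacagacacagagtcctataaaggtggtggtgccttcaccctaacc
Cyp1b1, chr17:79715062-79715311, minus strand: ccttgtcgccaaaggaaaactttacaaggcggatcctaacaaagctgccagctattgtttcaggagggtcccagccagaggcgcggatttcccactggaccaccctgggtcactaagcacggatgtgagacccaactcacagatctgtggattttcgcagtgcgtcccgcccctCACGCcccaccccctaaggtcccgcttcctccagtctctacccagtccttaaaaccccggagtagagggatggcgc
Ahrr, chr13:74292332-74292581, minus strand: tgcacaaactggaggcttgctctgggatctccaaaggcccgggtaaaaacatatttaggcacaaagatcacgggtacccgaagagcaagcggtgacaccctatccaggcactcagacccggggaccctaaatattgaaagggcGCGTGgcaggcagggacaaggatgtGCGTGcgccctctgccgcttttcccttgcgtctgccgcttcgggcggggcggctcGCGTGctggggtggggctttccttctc
Nqo1, chr8:107403206-107403455, minus strand: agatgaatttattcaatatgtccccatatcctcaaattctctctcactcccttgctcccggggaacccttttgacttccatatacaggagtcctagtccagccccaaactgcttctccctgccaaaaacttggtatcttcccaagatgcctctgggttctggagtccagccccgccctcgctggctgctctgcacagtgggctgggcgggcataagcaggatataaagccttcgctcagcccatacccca
The core of *Cyp1a1* lay 54 to 50 bases before the start and that of *Cyp1b1* 76 to 72 bases before it. *Ahrr* held 3 cores, at 107 to 103, 82 to 78, and 27 to 23 bases before the start. The core of *Tiparp* lay 170 to 166 bases and that of *Arnt* 29 to 25 bases before the start. The NRF2-type motif TGACNNNGC, searched on both strands and present in 10.2% of promoters, was not found in the stretch of *Nqo1*. Among the 6 stretches only that of *Arnt* held it, with 2 matches, at 127 to 119 and 50 to 42 bases before the start. These matches describe the letters of a short window and do not show binding.

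Library totals ran from 17228982 to 24694828 counts, and the common biological coefficient of variation between libraries of a group was 4.44%. Levels are given as CPM (counts relative to the library total) scaled with TMM factors. The summed stromal markers, led by *Vim* and *Pdgfrb*, lay at 1984 to 2094 CPM in the 6 JMO libraries, 2279 to 2308 in DKO, and 2485 to 2766 in the others, without overlap. *Vim*, which encodes vimentin, was lower in JMO than in every other line, with log2 fold changes of -0.29 against DKO and -0.56 to -0.58 against the other 3 (largest adjusted p = 4.39e-08, edgeR). The list did not move as a whole. In JMO against DKO, *Thy1* (1.99) and *Pdgfra* (0.43) were called higher and *Pdgfrb* (-0.11) lower, and *Pparg* (-0.04) did not pass. In JMO against IR, *Pparg* (0.69), *Thy1* (0.26), and *Pdgfrb* (0.07) were called higher and *Pdgfra* (-0.33) lower. The brown preadipocyte markers *Dlk1*, *Ebf2*, and *Prdm16* did not exceed a group mean of 0.287 CPM. The 5 mature adipocyte markers summed to 4.16 to 4.87 CPM in JMO libraries, 2.50 to 2.60 in DKO, and 0.551 to 2.01 in the others. Nearly all of that came from *Fabp4*, which encodes a fatty acid carrier, with *Ucp1*, *Cidea*, and *Adipoq* at or near 0. The 4 epithelial markers, of which *Krt8* alone passed the filter on low counts, summed to 0 to 0.102 CPM in the 6 JMO libraries and 0.244 to 1.04 in the others, and *Krt8* was called lower in JMO than in each other line (largest adjusted p = 0.00241, edgeR). These 3 sums set JMO apart as *Cyp1a1* did, and their part in the results was not tested. Summed markers ranged from 6.91 to 17.5 CPM for endothelial cells, 1.85 to 4.13 for immune cells with *Adgre1* at 0, and 0 to 0.0592 for skeletal muscle with *Myod1* at 0. In bulk RNA, fewer cells with a transcript and less transcript per cell cannot be told apart.

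*Ahr* (ENSMUSG00000019256, chr12:35497974-35535038, minus strand, GRCm38), the receptor gene itself, was highest in JMO cells and lowest in ∆CT cells. Its basal CPM in the 3 libraries was 28.2, 28.4, and 26.5 in JMO cells and 25.1, 22.9, and 23.0 in DKO cells. It was 19.4, 19.6, and 19.5 in IR cells, 20.9, 19.4, and 17.7 in K1030R cells, and 16.3, 15.0, and 16.2 in ∆CT cells. The 6 JMO libraries, with and without insulin, spanned 26.5 to 28.4 CPM and did not overlap with the other 20, which spanned 15.0 to 25.1. How often other genes separate JMO in this way was not counted. In the Benjamini-Hochberg adjusted quasi-likelihood test of edgeR, the log2 fold change of JMO was 0.23 against DKO (SE 0.0619, adjusted p = 0.00398), 0.51 against IR (adjusted p = 3.24e-08), 0.52 against K1030R (adjusted p = 3.73e-08), and 0.80 against ∆CT (adjusted p = 2.25e-12). *Ahr* fell relative to DKO in all 3 lines with most or all of the intracellular domain. In the same edgeR test, the log2 fold change against DKO was -0.28 for IR (adjusted p = 0.000448), -0.29 for K1030R (adjusted p = 0.000404), and -0.58 for ∆CT (adjusted p = 6.38e-09). In the order of levels, JMO, DKO, IR, K1030R, and ∆CT, the neighbours IR and K1030R overlapped (adjusted p = 0.917), and ∆CT was below K1030R by 0.28 on the log2 scale (adjusted p = 0.0148). Between the insulin-treated libraries the last difference was 0.0659 in the opposite direction (adjusted p = 0.708), and the basal difference of ∆CT from K1030R did not pass without K1030R library 1 (-0.23, adjusted p = 0.130), without ∆CT library 2 (-0.24, adjusted p = 0.0702), or with only these groups in the fit (adjusted p = 0.128).

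*Arnt* (ENSMUSG00000015522, chr3:95434388-95497240, plus strand), which encodes the partner that AhR needs to bind DNA, varied least of the 7 genes, with its group means spanning 0.26 on the log2 scale. Its highest level was in IR cells, at 153, 153, and 162 CPM, and DKO libraries had 133, 129, and 132 CPM. JMO libraries, at 138, 133, and 140 CPM, lay within the range of the other lines. *Arnt* was higher in IR than in DKO cells by 0.25 on the log2 scale (SE 0.0309, adjusted p = 2.40e-08, edgeR quasi-likelihood test, Benjamini-Hochberg adjusted) and lower in JMO than in IR cells by a log2 fold change of -0.19 (adjusted p = 4.46e-06). Against DKO, the difference of JMO was 0.06, with a 95% interval from -0.00 to 0.12 (adjusted p = 0.144).

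*Cyp1a1* (ENSMUSG00000032315, chr9:57687928-57703824, plus strand) had few counts in every line but JMO. Its basal CPM was 10.1, 11.2, and 9.56 in JMO libraries and 1.95, 2.33, and 2.64 in DKO libraries. It was 0.683, 0.597, and 0.790 in IR libraries, 1.60, 1.56, and 2.17 in those of K1030R, and 2.51, 1.90, and 0.982 in those of ∆CT. These levels rest on 661 counts over the 3 basal JMO libraries, 143 for DKO, 43 for IR, 100 for K1030R, and 110 for ∆CT. With insulin, JMO libraries had 11.9, 11.9, and 8.77 CPM, IR libraries 0.886, 0.734, and 1.38, K1030R libraries 1.69, 1.40, and 1.71, and ∆CT libraries 2.17 and 1.51. The 6 JMO libraries thus spanned 8.77 to 11.9 CPM and the other 20 spanned 0.597 to 2.64, without overlap. IR cells were lowest, below every library of the DKO, K1030R, and ∆CT lines in the basal state, whereas DKO, ∆CT, and K1030R overlapped with their neighbours in the order of levels. As a description, the log2 fold change of JMO was 2.14 against DKO (SE 0.187), 3.88 against IR (SE 0.229), 2.53 against K1030R (SE 0.198), and 2.50 against ∆CT (SE 0.194). The neighbouring *Cyp1a2*, the third member of this P450 family, had a highest group mean of 0.0197 CPM and was not tested.

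**Figure D1:**
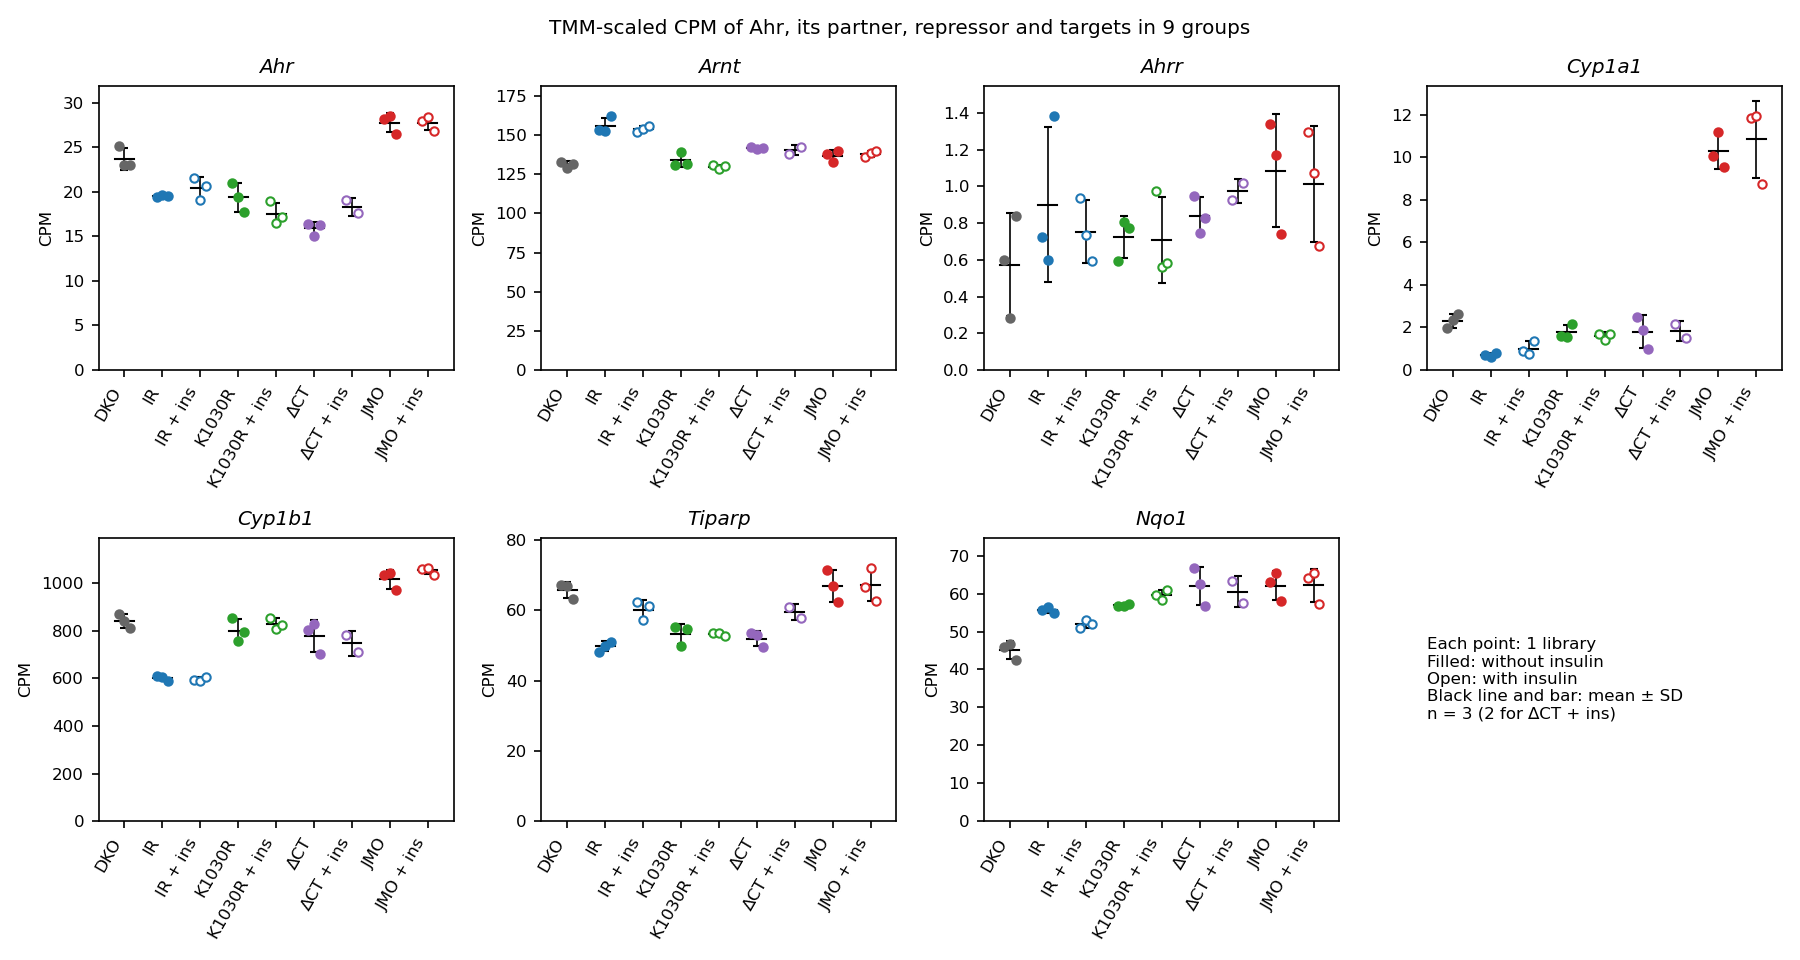
Levels of the 7 genes in each library, in TMM-scaled CPM on linear axes that start at 0. Points are libraries (filled basal, open with insulin) and black marks the mean ± SD of each group, and the JMO libraries of *Ahr*, *Cyp1a1*, and *Cyp1b1* lie above all 20 libraries of the other lines. The share of all genes that separate JMO in this way was not counted.

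*Cyp1b1* (ENSMUSG00000024087, chr17:79701537-79715061, minus strand), the other P450 of the family, shared the extremes of *Cyp1a1*, highest in JMO and lowest in IR cells, over a far smaller span of fold. Its basal CPM was 1034, 1042, and 969 in JMO and 869, 842, and 811 in DKO libraries. It was 610, 608, and 591 in IR libraries, 852, 756, and 794 in those of K1030R, and 801, 830, and 704 in those of ∆CT. The 6 JMO libraries spanned 969 to 1063 CPM and the other 20 spanned 587 to 869, again without overlap, and the 6 IR libraries lay below all others. In the Benjamini-Hochberg adjusted quasi-likelihood test of edgeR, the log2 fold change of JMO was 0.27 against DKO (SE 0.0488, adjusted p = 9.85e-05), 0.75 against IR (adjusted p = 2.94e-12), 0.34 against K1030R (adjusted p = 3.70e-06), and 0.38 against ∆CT (adjusted p = 5.60e-07). Relative to DKO, *Cyp1b1* fell in IR cells by 0.48 on the log2 scale (adjusted p = 9.03e-09, same test). The differences were -0.07 in K1030R (95% interval -0.17 to 0.03, adjusted p = 0.269) and -0.11 in ∆CT cells (95% interval -0.21 to -0.01, adjusted p = 0.0657), so neither passed after adjustment. The difference of ∆CT from DKO was called with DESeq2 (adjusted p = 0.0350), with no filter on low counts (adjusted p = 0.0171), and with the replicate number as a block (adjusted p = 0.0250). It was also called without any one of DKO library 3, K1030R libraries 1 and 2, ∆CT library 2, and the 2 libraries of ∆CT with insulin (adjusted p = 0.0119 to 0.0498). *Cyp1b1* was higher in K1030R and ∆CT than in IR cells, with log2 fold changes of 0.41 (adjusted p = 4.90e-07) and 0.37 (adjusted p = 3.14e-06).

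*Nqo1* (ENSMUSG00000003849, chr8:107388225-107403206, minus strand) was set apart by its low level in DKO cells rather than by a high level in JMO cells. DKO libraries had 46.0, 46.8, and 42.4 CPM, below the 23 libraries of the receptor lines. JMO libraries had 63.0, 65.3, and 58.0 CPM, and ∆CT libraries had 66.8, 62.5, and 56.8. IR libraries had 55.6, 56.4, and 54.9 CPM, and K1030R libraries had 56.7, 56.8, and 57.2. *Nqo1* was higher than in DKO in all 4 receptor lines, with log2 fold changes of 0.31 for IR, 0.34 for K1030R, 0.47 for ∆CT, and 0.47 for JMO (largest adjusted p = 1.42e-05, edgeR quasi-likelihood test, Benjamini-Hochberg adjusted). JMO exceeded IR cells by 0.16 (adjusted p = 0.0136), while its differences were 0.13 against K1030R (95% interval 0.02 to 0.23, adjusted p = 0.0608) and 0.00 against ∆CT (95% interval -0.11 to 0.11, adjusted p = 0.993). The call against IR was lost without JMO library 2 (0.12, adjusted p = 0.0919). The difference from K1030R passed without any one of JMO library 3, JMO with insulin library 3, ∆CT libraries 1 and 3, and DKO library 3 (adjusted p = 0.0188 to 0.0497).

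*Tiparp* (ENSMUSG00000034640, chr3:65528410-65555518, plus strand), an ADP-ribosyltransferase that modifies AhR and limits its activity, had overlapping levels in DKO and JMO libraries. Basal CPM was 71.3, 66.9, and 62.3 in JMO and 67.2, 66.7, and 63.2 in DKO libraries. It was 48.2, 49.9, and 51.1 in IR libraries, 55.3, 49.9, and 54.6 in those of K1030R, and 53.4, 52.8, and 49.4 in those of ∆CT. JMO and DKO overlapped and both lay above the other 3 lines in the basal state. The log2 fold change of JMO against DKO was 0.03, with a 95% interval from -0.07 to 0.13 (adjusted p = 0.702, edgeR quasi-likelihood test, Benjamini-Hochberg adjusted). Against IR, K1030R, and ∆CT it was 0.43, 0.33, and 0.37 (largest adjusted p = 2.85e-06), and against DKO the 3 lines fell by 0.40, 0.30, and 0.34 on the log2 scale (largest adjusted p = 1.05e-05). The gene shares 223 exonic bases with 4931440P22Rik on the opposite strand, whose mean level was 0.984 CPM.

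*Ahrr* (ENSMUSG00000021575, chr13:74211118-74292331, minus strand), which competes with AhR for ARNT, was close to the limit of the filter on low counts. Its basal CPM was 1.34, 1.17, and 0.743 in JMO, 0.597, 0.284, and 0.840 in DKO, and 0.725, 0.597, and 1.38 in IR libraries. The lines overlapped, and 13 of the 20 libraries outside JMO were above the lowest JMO library. The log2 fold change of JMO against DKO was 0.87 (SE 0.341, adjusted p = 0.0468, edgeR quasi-likelihood test, Benjamini-Hochberg adjusted). This call did not hold with DESeq2 (adjusted p = 0.105), with no filter on low counts (adjusted p = 0.0564), or with only the 2 groups in the fit (adjusted p = 0.0619). Without DKO library 2 it was 0.58 (adjusted p = 0.233), and without JMO library 1 it was 0.68 (adjusted p = 0.207). Leaving out any one of 8 further libraries, among them DKO library 1 and JMO library 2, also took the adjusted p above the threshold, to between 0.0506 and 0.102.

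Of the 6 genes other than *Cyp1a1*, JMO differed from DKO in 4, all higher (*Ahr*, *Ahrr*, *Cyp1b1*, and *Nqo1*), beside 34.2% of all tested genes called in either direction and 16.8% called higher. Against IR cells, 4 were higher and *Arnt* was lower, beside 42.4% of all genes called and 20.7% called higher. The same 3 genes, *Ahr*, *Cyp1b1*, and *Tiparp*, were called higher in JMO than in K1030R and than in ∆CT cells, beside 35.4% and 38.8% of all genes called in either direction and 17.4% and 19.5% called higher. The shares of genes called were large in every comparison of lines, so a member that passes the test is not unusual in itself. The share of all genes whose libraries do not overlap between lines was not counted, so the lack of overlap given for single members is a description only. When a difference had to exceed 1.5-fold (edgeR glmTreat), none of the 6 was called against DKO or K1030R, where 2.11% and 3.64% of all genes were. *Cyp1b1* was called against IR (adjusted p = 0.00625), where 4.59% of genes were, and *Ahr* against ∆CT (adjusted p = 0.00524), where 4.51% were. Between the other pairs of lines, none was called at this minimum, beside 6.88% of genes for IR, 5.29% for K1030R, and 6.3% for ∆CT against DKO, 1.04% for K1030R and 0.708% for ∆CT against IR, and 0.039% for ∆CT against K1030R. Comparisons that share the JMO or the DKO libraries are not independent of each other.

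**Figure D2:**
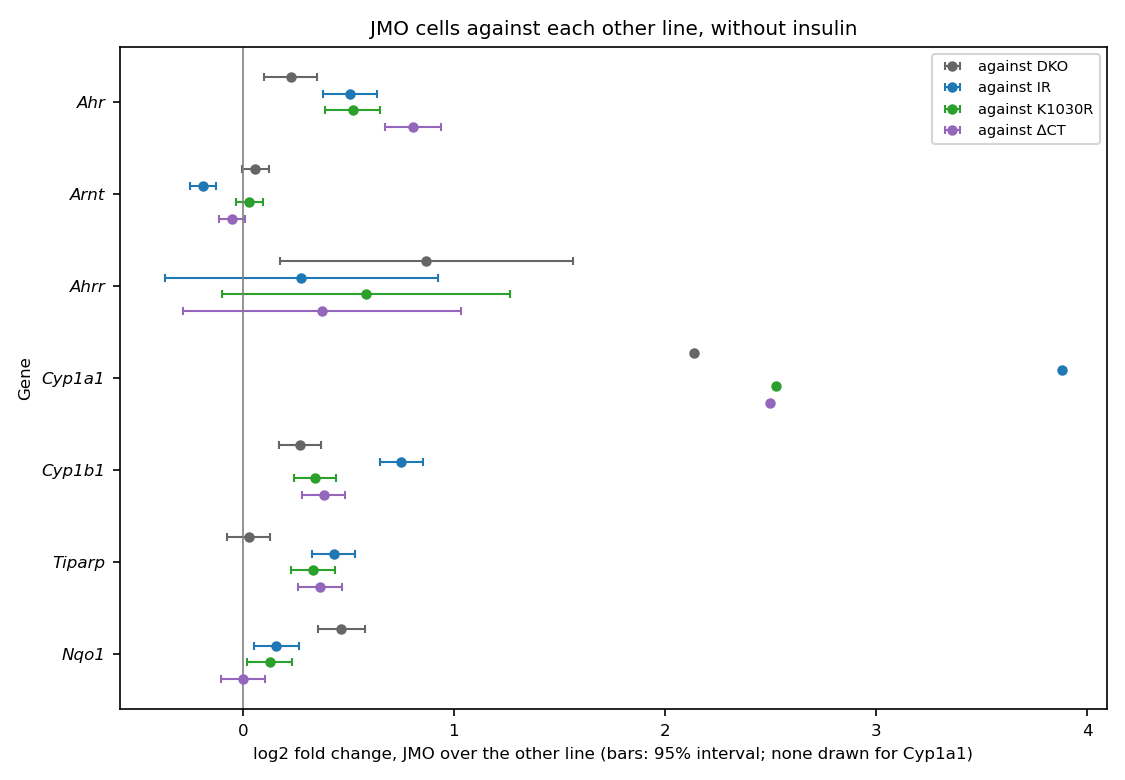
log2 fold changes of the 7 genes in basal JMO cells over each other line (x axis), with 95% intervals from the edgeR fit except for *Cyp1a1*, which was chosen for this difference. *Cyp1a1* lies between 2.14 and 3.88, and the other 6 genes lie between -0.19 and 0.87.

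Between DKO and the lines with most or all of the intracellular domain, the members split in direction. Relative to DKO, IR cells had 2 of the 6 higher (*Arnt* and *Nqo1*) and 3 lower (*Ahr*, *Cyp1b1*, and *Tiparp*), beside 49.8% of all genes called. K1030R cells had *Nqo1* higher and *Ahr* and *Tiparp* lower, beside 41.6%, and ∆CT cells had *Arnt* and *Nqo1* higher and the same 2 lower, beside 46.4%. K1030R differed from IR cells in 2 of the 6, *Cyp1b1* higher and *Arnt* lower, beside 30.2% of genes. ∆CT differed from IR in 4, *Cyp1b1* and *Nqo1* higher and *Ahr* and *Arnt* lower, beside 26.1%. Of these, *Nqo1* (0.16, adjusted p = 0.0234 in edgeR) did not pass without any one of IR libraries 1 and 3 and ∆CT libraries 1 and 2 (adjusted p = 0.0565 to 0.221). ∆CT and K1030R differed in *Ahr* alone, beside 3.43%.

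After 15 min of insulin, a single member was called in a single line by the test used. In IR cells, 1 of the 7 genes was called, *Tiparp*, beside 1.87% of all genes, and none exceeded a minimum of 1.5-fold, beside 0.221%. Its CPM was 62.2, 57.2, and 61.1 with insulin against 48.2, 49.9, and 51.1 without, and the libraries did not overlap. How many of all genes show no overlap between insulin and basal libraries of a line was not counted. The log2 fold change was 0.28 (SE 0.0517, adjusted p = 0.00124, edgeR quasi-likelihood test, Benjamini-Hochberg adjusted). In ∆CT cells *Tiparp* was at 61.0 and 57.8 CPM with insulin, above all 3 basal libraries, but its log2 fold change of 0.19 did not pass (95% interval 0.08 to 0.31, adjusted p = 0.135). It was called there with no filter on low counts (0.20, adjusted p = 0.0143). In K1030R and JMO cells the *Tiparp* differences were 0.00 and 0.01, with 95% intervals of -0.11 to 0.11 and -0.10 to 0.11. The insulin effect on *Tiparp* was smaller than in IR cells by 0.27 on the log2 scale in both K1030R and JMO cells. Neither difference of effects passed in the edgeR test with Benjamini-Hochberg adjustment (adjusted p = 0.149 and 0.150), but both were called without the filter on low counts (adjusted p = 0.0140 and 0.00660). The first was also called without K1030R library 2 (adjusted p = 0.0463), and the second without JMO library 3 (adjusted p = 0.0367) or JMO with insulin library 2 (adjusted p = 0.0289). In ∆CT cells the insulin effect on *Tiparp* differed from that in IR cells by -0.08 (95% interval -0.24 to 0.07) and was not called different. The tests of a difference in effect called 0.37% of all genes for K1030R, 0.279% for JMO, and 0.00649% for ∆CT. No member was called for insulin itself in the K1030R, ∆CT, or JMO line, where 0.156%, 1.01%, and 0.364% of all genes were. Before adjustment over all genes, *Ahr* in K1030R cells and *Ahr* and *Tiparp* in ∆CT cells were under 0.05 in edgeR, and after it *Ahr* had an adjusted p = 0.789 and an adjusted p = 0.329. DESeq2 called no member in these 3 lines, whereas the fit with no filter called *Tiparp* in ∆CT cells, as given above.

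The 4 immune markers, nearly all of whose sum came from *Cd68*, a lysosomal protein of macrophages, were also higher with insulin in some lines. Their sum was 2.13 to 2.52 CPM in basal IR libraries and 2.96 to 4.13 with insulin. In ∆CT libraries it was 2.12 to 2.42 CPM without and 3.35 to 3.77 with insulin, and in JMO libraries 2.34 to 2.72 without and 2.96 to 3.31 with it. In K1030R libraries it was 2.22 to 2.72 CPM without and 1.85 to 2.29 with insulin. *Cd68* was called in IR cells (log2 fold change 0.64, adjusted p = 0.0188, edgeR), as *Tiparp* was, and its 0.60 in ∆CT and 0.47 in JMO cells did not pass (adjusted p = 0.124 and 0.377). The part of these markers in the *Tiparp* result was not tested.

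*Ahr* with insulin was at 27.7 ± 0.796 CPM in JMO, 20.4 ± 1.23 in IR, and 17.5 ± 1.27 in K1030R cells (SD, n = 3 each). In ∆CT cells its 2 libraries had 19.0 and 17.6 CPM, above the 3 basal ones. *Cyp1b1* with insulin was at 1053 ± 15.5 CPM in JMO, 595 ± 10.3 in IR, and 827 ± 25.1 in K1030R cells (SD, n = 3 each), and its ∆CT libraries had 784 and 710 CPM. For *Cyp1b1*, JMO stayed above and IR below the other lines with insulin. *Cyp1a1* itself showed no insulin effect that passed the test in any line. The log2 fold change was 0.52 in IR cells (95% interval -0.14 to 1.18, adjusted p = 0.480), where 43 and 62 counts per group limit the precision, and 0.08 in JMO cells (95% interval -0.24 to 0.40, adjusted p = 0.981), both by the Benjamini-Hochberg adjusted quasi-likelihood test of edgeR. It was -0.16 in K1030R and 0.01 in ∆CT cells.

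**Figure D3:**
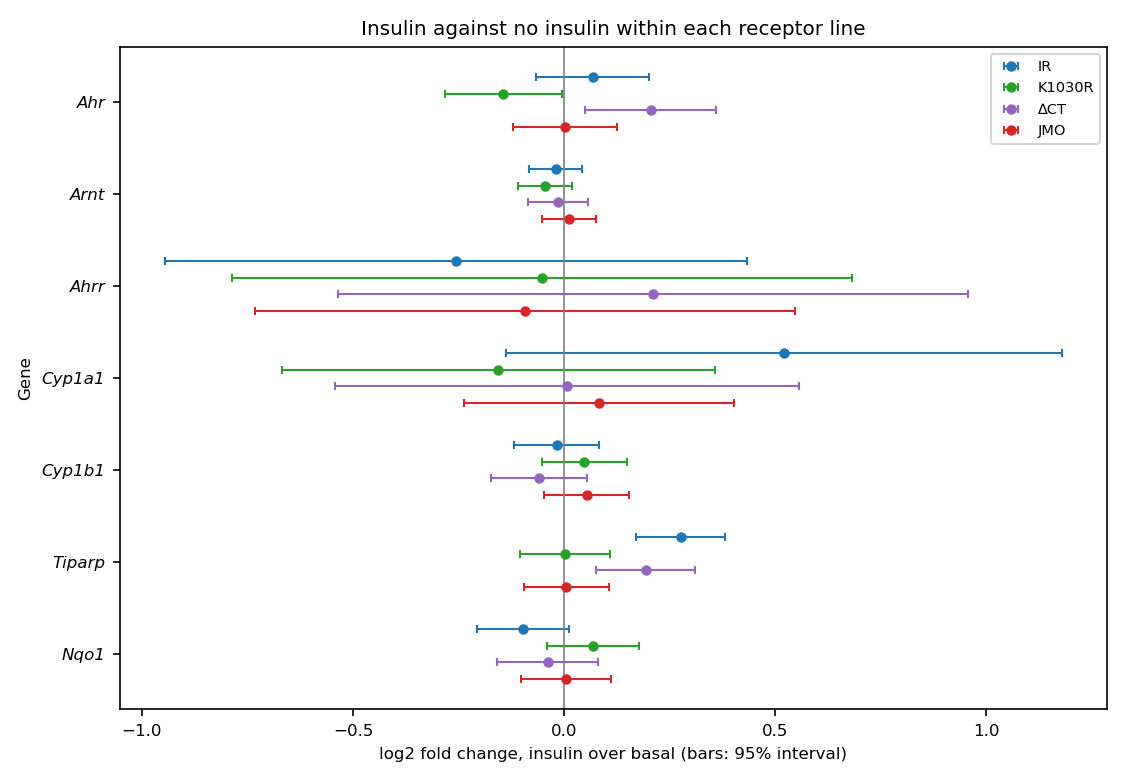
log2 fold changes of the 7 genes after 15 min of insulin within each receptor line (x axis), with 95% intervals from the edgeR fit. *Tiparp* in IR cells, at 0.28, is the single member called after adjustment over all genes.

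Other genes listed as AhR targets were read next, 13 in all, of which 8 passed the filter on low counts. Against DKO, JMO cells had 2 higher, *Ugt1a6a* and *Slc7a5*, and none lower, beside 34.2% of all genes called and 16.8% called higher, with a list median of 0.06 on the log2 scale against 0.01 over all genes. The count was 1 with DESeq2 and without any one of DKO libraries 1 and 2 and the 3 JMO libraries. Against each of IR, K1030R, and ∆CT cells, 4 of the 8 were higher in JMO and *Slc7a5*, a transporter of large neutral amino acids, was lower, with list medians of 0.03, 0.10, and 0.13. Of all genes, 42.4%, 35.4%, and 38.8% were called in these comparisons, and 20.7%, 17.4%, and 19.5% were called higher. The 4 were the 3 *Ugt1a* genes and *Nfe2l2*, which encodes NRF2 and is also counted with the NRF2 pathway. The remaining tested targets, *Aldh3a1*, *Gsta1*, and *Cyp2s1*, had group means of at most 1.49 CPM and were not called in JMO against any other line. Their log2 fold changes were -0.29, -0.55, and 0.13 against DKO and -0.21, -1.15, and -0.42 against IR (smallest adjusted p = 0.123, edgeR).

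The *Ugt1a* genes, which encode glucuronosyltransferases that conjugate phenols and other small molecules, showed the widest differences of the list and set DKO and JMO apart from the other 3 lines. *Ugt1a6a* had 22.4, 22.9, and 23.8 CPM in basal JMO and 19.7, 17.9, and 20.3 in DKO libraries. It had 6.10, 7.22, and 5.38 CPM in IR libraries, 5.21, 5.58, and 6.88 in those of K1030R, and 6.49, 4.99, and 6.05 in those of ∆CT. No library of the latter 3 lines, with or without insulin, exceeded 7.66 CPM. The log2 fold change of *Ugt1a6a* against DKO was -1.64 for IR, -1.71 for K1030R, and -1.72 for ∆CT (largest adjusted p = 2.65e-14, edgeR quasi-likelihood test, Benjamini-Hochberg adjusted). For JMO against IR it was 1.89 (SE 0.110, adjusted p = 5.70e-16). JMO exceeded DKO by 0.25 (adjusted p = 0.0375), a call lost with DESeq2 (adjusted p = 0.0716) and without any one of DKO libraries 1 and 2 and the 3 JMO libraries (adjusted p = 0.0562 to 0.157).

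*Ugt1a6b*, named after its values were seen, had group means of 9.38 ± 0.324 CPM in DKO, 9.22 ± 0.717 in JMO, 2.08 ± 0.464 in IR cells, 1.64 ± 0.299 in those with K1030R, and 1.55 ± 0.357 in those with ∆CT (SD, n = 3 each). Its JMO and DKO libraries overlapped, with a log2 fold change of -0.03 (adjusted p = 0.901 by edgeR). *Ugt1a7c*, with at most 1.99 CPM in any library, was higher in JMO than in IR cells by 2.37 on the log2 scale (SE 0.453, adjusted p = 6.33e-05, same test). These genes lie on chromosome 1 and share 3′ exons. Of the exonic bases, 50.3% in *Ugt1a6a*, 60.6% in *Ugt1a6b*, and 54.6% in *Ugt1a7c* also belong to another of the 9 annotated *Ugt1a* genes, so the split of reads among them is uncertain.

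**Figure D4:**
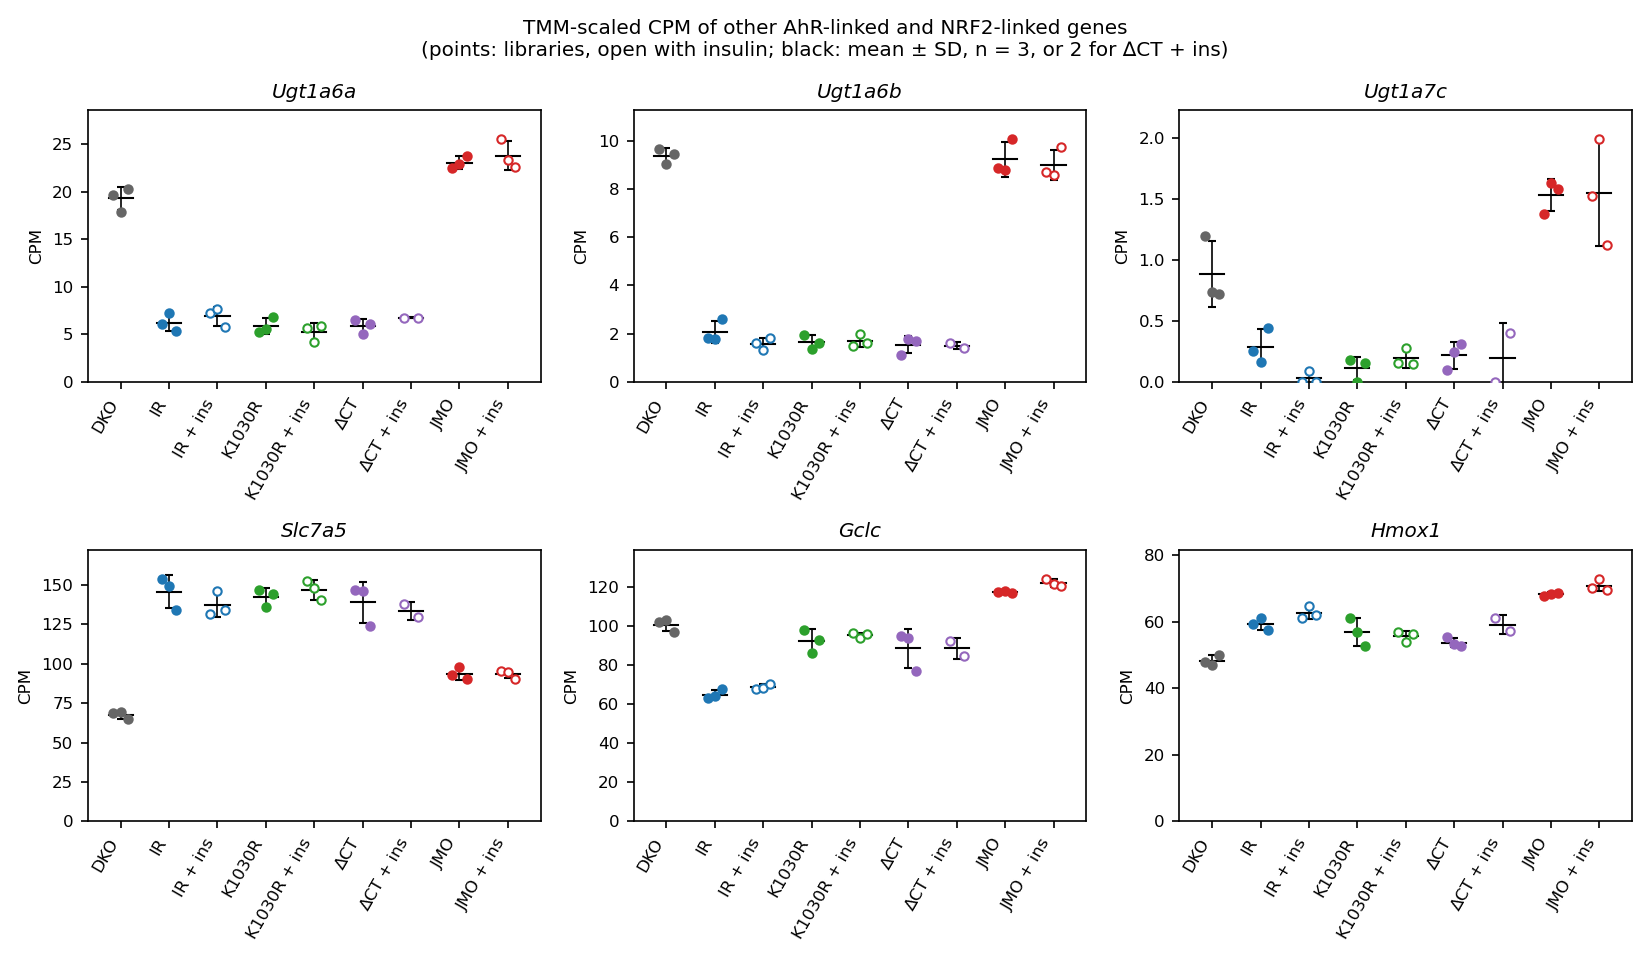
Levels of 4 further genes listed as AhR targets (*Ugt1a6a*, *Ugt1a6b*, *Ugt1a7c*, *Slc7a5*) and 2 NRF2 pathway genes (*Gclc*, *Hmox1*) in each library, in TMM-scaled CPM on linear axes that start at 0, with the mean ± SD of each group in black. *Ugt1a6a* and *Ugt1a6b* are high in DKO and JMO libraries, *Ugt1a7c* lies below 2 CPM throughout, *Slc7a5* is lowest in DKO, and *Gclc* and *Hmox1* are highest in JMO.

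Among the 11 NRF2 pathway genes, 8 were higher and none lower in JMO than in IR cells, with a list median of 0.23 on the log2 scale, and 5 were higher and 1 lower than in DKO cells, with a median of 0.09. These counts stand beside 42.4% of all genes called against IR and 34.2% against DKO, with 20.7% and 16.8% of all genes higher. *Gclc*, *Gclm*, *Txnrd1*, *Srxn1*, *G6pdx*, and *Prdx1* were also called higher in K1030R and ∆CT than in IR cells (largest adjusted p = 0.0393, edgeR). *Hmox1* was lower in ∆CT than in IR cells (-0.14, adjusted p = 0.0177). JMO exceeded K1030R and ∆CT cells in *Nfe2l2*, *Hmox1*, *Gclc*, *Gclm*, *Txnrd1*, and *Srxn1* by 0.16 to 0.40 on the log2 scale (largest adjusted p = 0.0153). It was not called different from either line in *G6pdx* or *Prdx1*. *Gclc*, the catalytic subunit of the enzyme that starts glutathione synthesis, had 118 ± 0.369 CPM in JMO, 101 ± 3.09 in DKO, and 65.0 ± 2.31 in IR cells (SD, n = 3 each). Its basal group mean was 92.5 CPM in K1030R and 88.8 in ∆CT cells. *Hmox1*, heme oxygenase 1, had 68.3 ± 0.495 CPM in JMO, 48.3 ± 1.61 in DKO, and 59.3 ± 1.85 in IR cells. JMO exceeded DKO by 0.22 for *Gclc* (adjusted p = 0.00110) and 0.50 for *Hmox1* (adjusted p = 6.00e-11) on the log2 scale, by the Benjamini-Hochberg adjusted quasi-likelihood test of edgeR. *Slc7a11*, the cystine transporter, was lowest in DKO cells at a group mean of 9.75 CPM, against 22.1 in JMO and 25.3 in IR cells. It was lower in JMO than in K1030R cells by a log2 fold change of -0.21 (adjusted p = 0.0452, edgeR). *Gclm*, the regulatory subunit partnered with GCLC, was higher in JMO than in DKO cells by 0.14 (adjusted p = 0.0137), a call lost without DKO library 3 (adjusted p = 0.0660).

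Of 6 genes of the receptor complex and its regulators, which include *Ahr*, *Arnt*, and *Ahrr*, 2 were higher and 2 lower in JMO than in DKO cells, beside 34.2% of all genes called. *Ptges3*, which encodes p23, and *Hsp90aa1* fell by 0.32 and 0.23 on the log2 scale (adjusted p = 1.70e-07 and 4.70e-06, edgeR quasi-likelihood test, Benjamini-Hochberg adjusted). Against IR, 2 were higher and 2 lower in JMO, beside 42.4% of all genes, and the difference of *Hsp90aa1* was 0.41 (adjusted p = 2.10e-11), opposite in sign to that against DKO. The falls from DKO were not particular to JMO. In IR, K1030R, and ∆CT cells, *Ptges3* fell from DKO by 0.39, 0.26, and 0.29 and *Hsp90aa1* by 0.65, 0.25, and 0.30 (largest adjusted p = 4.47e-06, edgeR). For *Ptges3*, JMO did not differ from IR (0.07, adjusted p = 0.209), K1030R (-0.06, adjusted p = 0.262), or ∆CT cells (-0.03, adjusted p = 0.582). For *Hsp90aa1*, JMO did not differ from K1030R (0.01, adjusted p = 0.834) or ∆CT cells (0.07, adjusted p = 0.142). K1030R and ∆CT cells also exceeded IR in *Hsp90aa1*, by 0.40 and 0.34 (largest adjusted p = 9.92e-09, edgeR).

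Of 11 related bHLH-PAS genes, 7 were tested, with 1 higher (*Arnt2*, a second partner of AhR) and 2 lower (*Hif1a*, the hypoxia factor that also pairs with ARNT, and *Arntl*, a clock factor) in JMO than in DKO cells, beside 34.2% of all genes called. Their log2 fold changes were 0.32 (adjusted p = 0.00970), -0.25 (adjusted p = 2.14e-07), and -0.24 (adjusted p = 0.0179) by edgeR with Benjamini-Hochberg adjustment, and that of the clock factor *Clock* was -0.06 (adjusted p = 0.164). Neither fall was confined to JMO. *Hif1a* was also below its DKO level with ∆CT (-0.14), K1030R (-0.09), and IR (-0.16, largest adjusted p = 0.0212, edgeR). JMO was lower still (-0.16 against K1030R, -0.11 against ∆CT, -0.09 against IR, largest adjusted p = 0.0330). *Arntl* also fell with IR (-0.64) and ∆CT (-0.36, largest adjusted p = 0.000295), and K1030R was not called (-0.11). JMO exceeded IR in *Arntl* (0.41, adjusted p = 0.000120) but not K1030R or ∆CT. *Epas1*, of the same list, was not called in JMO against DKO (0.24, adjusted p = 0.254). It was higher in JMO than in IR (1.10), ∆CT (0.87), and K1030R cells (0.54, largest adjusted p = 0.0101, edgeR). *Arnt2* did not pass without DKO library 2 (adjusted p = 0.0502) or JMO library 1 (adjusted p = 0.0853), nor *Arntl* without DKO library 1 (adjusted p = 0.0594) or JMO library 2 (adjusted p = 0.0521). Among 10 genes of the path from tryptophan to kynurenine, a source of AhR ligands, only 4 were tested. Of these, *Afmid*, which encodes the formamidase of that path, was higher in JMO than in DKO by 0.44 (adjusted p = 0.00367), while *Kyat3*, *Kyat1*, and *Il4i1* had 0.13, 0.11, and -0.08 and did not pass. *Afmid* was likewise higher than in DKO in IR, K1030R, and ∆CT cells, by 0.37, 0.64, and 0.41 (largest adjusted p = 0.0102, edgeR). The first enzymes, *Ido1* and *Tdo2*, were at a group mean of at most 0.0362 CPM, and *Ido2*, of the same step, was at most 0.150 CPM, in JMO cells with insulin. Of 3 redox partners of P450 enzymes, *Cyb5a* rose by 0.25 (adjusted p = 2.65e-06), *Por*, the main electron donor, fell by 0.20 (adjusted p = 3.72e-05), and *Cyb5r3* had -0.02 (adjusted p = 0.655) in JMO against DKO cells. *Por* fell against DKO in IR, K1030R, and ∆CT cells too, by 0.22, 0.19, and 0.20 (largest adjusted p = 4.37e-05, edgeR). *Cyb5a* instead fell there, by 0.26, 0.24, and 0.29 (largest adjusted p = 6.64e-06, edgeR).

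Across the 9 group means, the pattern of *Cyp1a1* on the log2 scale was closest to that of *Cyp1b1* among the members (Pearson's r = 0.93), followed by *Ahr* (0.79), *Tiparp* (0.76), *Ahrr* (0.48), *Nqo1* (0.39), and *Arnt* (-0.47). The 9 means come from 5 lines, so basal and insulin means of a line are not separate evidence. The share of all tested genes with such correlations to *Cyp1a1* was not counted, so these values are a description only. Among 2527 tested genes whose group means spanned at least 1 on the log2 scale, the 5 most like *Cyp1a1* were *Pvt1* (r = 0.987), a long noncoding RNA, *Per2* (0.976), a repressor of the circadian clock, *Neurl3* (0.976), a ubiquitin ligase, *Nr1h4* (0.975), the bile acid receptor FXR, and *Slc16a6* (0.968), a monocarboxylate transporter. *Per2* had a group mean of 22.6 CPM in basal JMO, 14.0 in DKO, and 10.1 in IR cells. Over the 5 basal groups alone, *Pvt1* was the only 1 of these 5 to remain among the 5 most similar genes. The 5 most like *Cyp1b1* were *Shank2* (0.993), *Vcan* (0.985), *Pvt1* (0.969), *Gm5464* (0.967), and *Dok7* (0.965), and the 3 most like *Ahr* were *Adamts9* (0.986), *Abcb1a* (0.982), and *C1s2* (0.980).

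**Figure D5:**
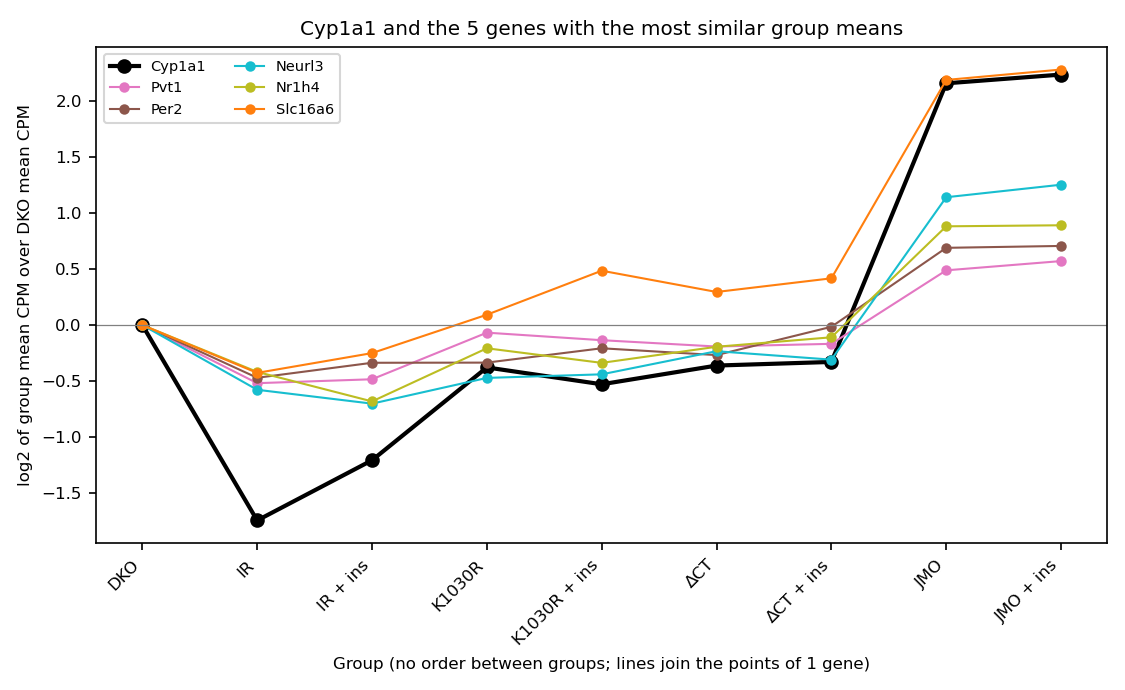
Group means of *Cyp1a1* and of the 5 genes with the most similar group means, as log2 of the ratio to the DKO mean CPM (y axis) over the 9 groups (x axis). All 6 genes are highest in the 2 JMO groups, and *Cyp1a1* falls furthest in IR cells. The 5 genes were picked for their likeness to *Cyp1a1*, so their high level in JMO follows from the choice and is no separate result.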

How the data were processed

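Messenger RNA of 26 libraries in 9 groups was measured by sequencing. Per their methods, the authors used fastp to trim single-end reads and kallisto to assign reads to transcripts of Ensembl, whose estimates were added up per gene, and the deposited values are expected counts per gene and library, neither filtered nor scaled. Tool versions are not given in the sources used here. Of the values, 79.9% are whole numbers, with no tolerance. Because reads were assigned to transcripts by likelihood, genes with shared exons can exchange counts.

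Counts were rounded, genes above 0.5 CPM in at least 4 libraries were kept, and TMM scaling factors were applied. In edgeR 4.0.16 (R 4.3.3), all 26 libraries entered a robust quasi-likelihood fit, in which each group had its own mean. p-values were adjusted over all 15402 genes with the Benjamini-Hochberg method and called below 0.05. CPM are given as values of single libraries or as mean ± SD. Coordinates are those of the GENCODE annotation on GRCm38, and promoter sequences are from RefSeq on GRCm38.p6.

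The members and gene lists were chosen with earlier results of these data known. Beyond the 7 members, up to 4 genes of each list were named for the lowest adjusted p in JMO against DKO. Some genes were named outside this rule, among them *Ugt1a6b*, *Nfe2l2*, *Gsta1*, *Cyp2s1*, *Epas1*, *Txnrd1*, *Srxn1*, *G6pdx*, *Prdx1*, and the untested *Ido1*, *Ido2*, and *Tdo2*. A few list genes are not reported here and enter no list count. The genes most like a member had the highest Pearson correlation of log2 group means. The labels name no batch. Replicate libraries were further apart than sampling noise would make them (2.92 to 23.6 for the chi-square divided by its degrees of freedom, 25 pairs). A CPM of 0.5 is about 10 counts at these totals, and lower values rest on few counts. Alternatives were RLE scaling, no filter, a minimum of 10 counts, DESeq2 1.42.0, limma 3.58.1, a minimum fold of 1.5, fits restricted to the lines compared, use of the insulin-treated libraries for line comparisons, replicate number as a block, and each library left out in turn. The model was tested on simulated data. The proteomic and qPCR data were not analysed here.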

Additional observations from a re-analysis of the deposited data

How the results depend on the processing

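With a minimum fold of 1.5, the counts of members called dropped in both edgeR glmTreat and limma TREAT to 0 for IR, K1030R, ∆CT, and JMO against DKO, JMO against K1030R, K1030R and ∆CT against IR, ∆CT against K1030R, and insulin in IR cells. For JMO against IR 1 was left by glmTreat and 0 by limma, and for JMO against ∆CT 1 by either. With the insulin libraries, 5 members differed between K1030R and IR and 0 between ∆CT and K1030R, where the *Ahr* difference was 0.0659. In fits of only the groups compared, ∆CT differed from IR in 2 members and from K1030R in 0. With no filter on low counts, *Tiparp* gave 1 call for insulin in ∆CT cells and 1 each for the difference of insulin effects of K1030R and JMO from IR. Leaving out single libraries gave 0 to 2 calls for ∆CT against K1030R (0 without K1030R library 1 or ∆CT library 2, and 2 without ∆CT library 3). It gave 0 to 1 for the differences of insulin effects (1 without K1030R library 2, and without JMO library 3 or library 2 of JMO with insulin). Differences near 0 changed sign: *Nqo1* for JMO against ∆CT was -0.00110 with RLE scaling, -0.0143 with no filter, -0.00252 with at least 10 counts, -0.000911 with DESeq2, -0.00144 with only the groups compared, and -0.0577 to 0.0575 without single libraries. *Tiparp* for insulin in JMO cells was -0.000501 with RLE scaling, -0.00363 with no filter, -0.000314 with DESeq2, and -0.0542 to 0.0574 without single libraries. Without single libraries, *Tiparp* ranged from -0.0438 to 0.0285 for insulin in K1030R cells and from -0.0204 to 0.0769 for JMO against DKO. *Cyp1a1* for insulin in ∆CT cells was -0.0111 with the replicate block and -0.279 to 0.331 without single libraries, and in K1030R cells it was -0.248 to 0.0183. The cause of these shifts was not tested. Libraries with equal replicate numbers did not deviate together (median correlation of residuals 0.000536 over 100 equally numbered pairs and -0.000485 over 200 others). With the replicate number as a block, 3 members were called for JMO against DKO in place of 4, 5 for ∆CT against DKO in place of 4 (*Cyp1b1* added), and 4 for JMO against K1030R in place of 3, and no other count of members changed.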
